A study of Rattus norvegicus with 10 samples.

Results

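The genes described here are receptors and neuropeptides through which autonomic nerves can act on the lacrimal gland: the alpha1-adrenergic receptors Adra1a, Adra1b and Adra1d, the beta1-adrenergic receptor Adrb1, the receptor of vasoactive intestinal peptide (VIP) Vipr1, and the peptides Vip and neuropeptide Y (Npy). Every probe set that the array's platform annotation assigns to 1 of these 7 symbols was taken, dim ones included, which gave 9 of 8740 probe sets (7 of 4736 named genes). Messenger RNA was measured in 10 rat lacrimal glands, 1 array per gland. Denervated glands (n = 5) had been without their greater superficial petrosal nerve, cut surgically, for 7 days, contralateral control glands (n = 3) came 7 days after that surgery, the sham gland (n = 1) 7 days after a sham operation, and the unoperated gland (n = 1) from normal tissue. The sources used here do not give strain, sex or age. For the contralateral controls the titles and the descriptions name opposite sides. The titles were followed. Whether each gland is from its own animal is not stated, and the p-values therefore reflect the spread among these samples alone, part or all of which may be technical.

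The greater superficial petrosal nerve carries preganglionic parasympathetic fibres towards the pterygopalatine ganglion, whose neurons supply the lacrimal gland and release acetylcholine and VIP. Sympathetic fibres reach the gland by another route and release noradrenaline, often together with NPY. Alpha1 receptors couple mainly to phospholipase C and calcium, whereas beta1 and VIP receptors couple mainly to adenylyl cyclase and cyclic AMP. The cell bodies of the neurons that make these peptides lie mostly in ganglia outside the gland, and nerve fibres hold comparatively little messenger RNA.

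Of the 7 genes, 6 have an entry in the RefSeq promoter table of the GRCr8 assembly, which holds 250 bases before and 50 after each gene's start. The Vip promoter is shown because the peptide's gene is a known example of a neuropeptide gene with a cyclic AMP response element. This is the DNA site through which the second messenger of the beta1 and VIP receptors can act. The core TGACGTC was searched on both strands. It was found in the window of Vip and not in those of Adra1b, Adra1d, Adrb1, Vipr1 and Npy, while 3.22% of all 33469 promoters of this length held it. The capitals mark the core, which begins 97 bases before the start used in the table. The whole stretch of 51 bases shown lies on the plus strand at chr1:44470361-44470411.
Vip: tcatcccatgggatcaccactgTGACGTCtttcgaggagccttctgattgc

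Some arrays stood apart. Denervated 1, contralateral 1 and sham correlated with each other at 0.866 to 0.906 (log2 intensity across probe sets, which are not independent replicates) and with the other 7 glands at 0.757 to 0.858. Their Dnase1 intensity, at its brighter probe set, was at least 329146, against at most 15271 in the other glands. Denervated 5 correlated with the others at 0.757 to 0.859, while the remaining 6 glands correlated with each other at 0.853 or more. Median intensity was 979 in sham, 871 in denervated 5, 860 in denervated 1, 810 in the unoperated gland and 766 in contralateral 1, in a range of 554 to 979 over all arrays. Of 16 lacrimal secretory markers 8 were on the array. At each gene's brightest probe set Dmbt1, Cst3, Lyz2, the water channel Aqp5 and the granule GTPase Rab3d had intensities of at least 3102 in every gland. Dnase1 was below that level in some glands, with a lowest value of 761.5, and Scgb1d2 and Obp1f were under the filter on dim signal, Obp1f being under the floor in 4 glands. Below, the 3 glands that stood apart are denervated 1, contralateral 1 and sham. The 7 glands that did not stand apart are all others and still include denervated 5, so they are not a uniform set. Differences among these 7 are given beside those over all 10.

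Intensities are linear values that the authors scaled to a common array level. Values below the 20th percentile of all intensities, 156.2, were set to that floor before log2 was taken, so log2 differences that involve the floor depend on where it is set. With a floor at the 10th percentile some were larger in size and others smaller, and Adra1a against all controls changed sign. Differences in log2 intensity were fitted with limma over all probe sets above a filter on dim signal (6118 probe sets), and 6 of the 9 probe sets passed that filter. For the other 3, of Adrb1, Vip and 1 of the 2 for Adra1d, values come from the same fit with no filter (8740 probe sets). Because arrays give no common scale between probe sets, levels are compared between glands and not between genes.

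**Figure D1:**
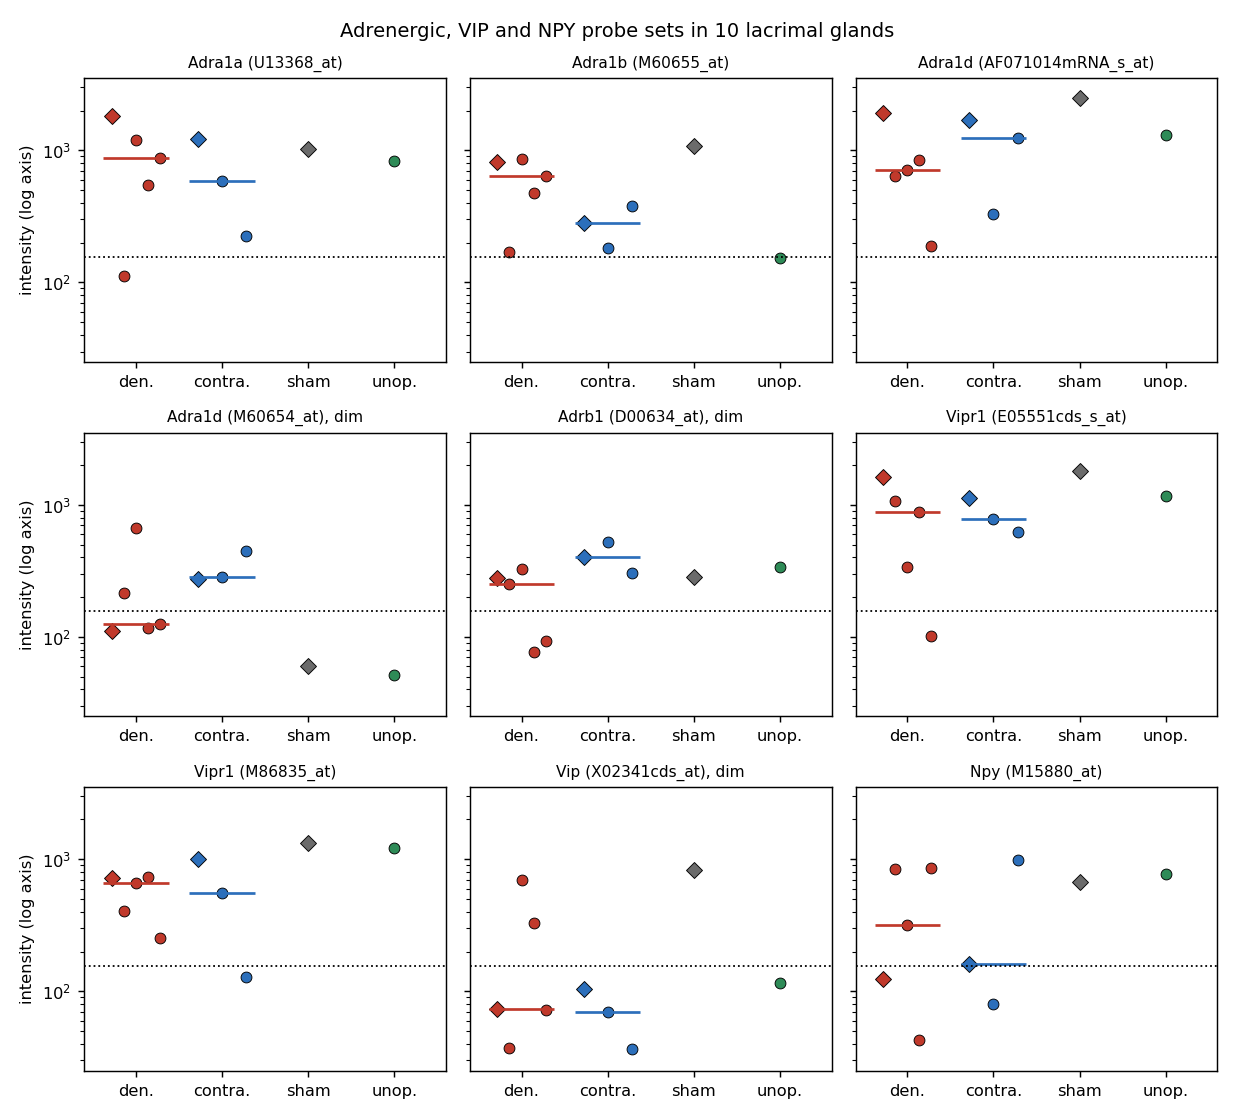
Intensity (log axis) of each of the 9 probe sets in denervated (den.), contralateral (contra.), sham and unoperated (unop.) glands. Each point is 1 gland, diamonds mark denervated 1, contralateral 1 and sham, horizontal bars are medians of groups with several glands, and the dotted line is the floor of 156.2; the denervated and control points overlap in every panel.

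No member passed the test. In denervated against all control glands 0 of the 6 probe sets above the filter had an adjusted p under 0.05 by limma, and neither did any other probe set (0.00% of 6118); at an unadjusted p under 0.05 the counts were 0 of 6 members and 592 of all, 9.68%. Against contralateral glands the counts were again 0 of 6, with 0.00% of 6118 passing and 7.16% at an unadjusted p under 0.05. In none of the 9 probe sets did the denervated glands all lie beyond the 5 control glands, or beyond the 3 contralateral glands, which happened for 1.33% and 3.90% of all 8740 probe sets. In these whole-gland samples fewer cells of a type and less RNA per cell cannot be told apart.

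Adra1a encodes a receptor that responds to noradrenaline through phospholipase C. Its intensity was 1825, 112, 1189, 546 and 869 in denervated glands 1 to 5, against 1210, 582 and 226 in contralateral glands 1 to 3, 1029 in sham and 831 in the unoperated gland. The denervated glands included both the highest value and the lowest one, the only value under the floor, so they enclosed all controls. The log2 difference was 0.05 ± 0.67 (SE) from all control glands, with a 95% interval of -1.39 to 1.49, and 0.36 ± 0.79 (SE) from contralateral glands (limma adjusted p = 0.984 and 0.947). Among the 7 glands that did not stand apart it was 0.19 ± 0.78 (SE) from all controls and 0.59 ± 0.89 (SE) from contralateral glands. The 3 glands that stood apart were among the highest for Adra1a, with denervated 3 the only other gland above the lowest of them.

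Adra1b encodes the alpha1B receptor, another phospholipase C-coupled receptor. It had intensities of 816.5, 171, 852, 478 and 636 in denervated glands, against 280, 183 and 379.5 in contralateral glands, 1070 in sham and 153 in the unoperated gland. Denervated glands 1, 3, 4 and 5 lay above all 3 contralateral glands, denervated 2 below them, and the sham gland above every other. Log2 intensity averaged 9.01 ± 0.95 (SD, n = 5) across denervated glands, against 8.07 ± 0.53 (SD, n = 3) across contralateral glands. The difference was 0.94 ± 0.75 (SE), a 95% interval of -0.69 to 2.56 (limma adjusted p = 0.822), and 0.69 ± 0.64 (SE) against all control glands (limma adjusted p = 0.738). In the 7 glands that did not stand apart it was 0.80 ± 0.82 (SE) and 1.05 ± 0.72 (SE). Adra1b was higher in denervated glands in both comparisons under each alternative tried, and its lowest adjusted p was 0.601.

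Adra1d encodes the alpha1D receptor, the subtype described in rat lacrimal gland as acting through nitric oxide and cyclic GMP. At the brighter probe set, AF071014mRNA_s_at, whose suffix marks probes that can match more than 1 transcript, intensity was 1909, 639, 707, 846 and 189 in denervated glands, against 1705, 328 and 1240 in contralateral glands, 2468 in sham and 1311 in the unoperated gland. The 3 highest values were those of sham, denervated 1 and contralateral 1, the glands that stood apart, and this order of the 3 over the other 7 also held with quantile normalization and with equal array medians. Over all tested probe sets 9.09% had these same 3 glands highest. The other 4 denervated glands lay between 189 and 846, while the other controls lay at 328, 1240 and 1311. The log2 difference was -0.80 ± 0.64 (SE) from all control glands and -0.39 ± 0.74 (SE) from contralateral glands (limma adjusted p = 0.696 and 0.934), and among the 7 glands -0.64 ± 0.72 (SE) and -0.30 ± 0.82 (SE). Leaving out 1 gland at a time gave -1.265 to -0.347 from all control glands, the smallest in size being without denervated 5.

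The second Adra1d probe set, M60654_at, was dim. It read 112, 215.5, 667, 118 and 126 in denervated glands, against 274, 286 and 444 in contralateral glands, 60.3 in sham and 51.9 in the unoperated gland. Denervated glands 1, 4 and 5, sham and the unoperated gland were under the floor, so the 3 contralateral glands lay above 4 of the 5 denervated glands and above both single controls. Its log2 difference was -0.55 ± 0.48 (SE) from contralateral and -0.13 ± 0.46 (SE) from all control glands (limma with no filter, adjusted p = 0.866 and 0.947), and among the 7 glands -0.55 ± 0.68 (SE) and -0.16 ± 0.62 (SE). Over the 10 glands the pair of Adra1d probe sets gave Pearson's r = -0.088 (permutation p = 0.813) and Spearman's rho = -0.291 (permutation p = 0.414). Without denervated 5 and contralateral 2, the glands farthest from the median of the brighter probe set, r was -0.420, and without the 3 glands that stood apart it was 0.203 (n = 7), so its sign depended on the glands included.

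Adrb1 encodes the beta1 receptor, which raises cyclic AMP. Its intensity was 279, 252, 324, 76.4 and 92.5 in denervated glands, against 399, 520 and 303 in contralateral glands, 286 in sham and 337 in the unoperated gland. Denervated glands 1, 2, 4 and 5 lay below all 5 controls, and denervated 3 lay above contralateral 3 and sham. Denervated 4 and 5 were the only glands under the floor. Mean log2 intensity was 7.80 ± 0.49 (SD, n = 5) in denervated, 8.49 ± 0.35 (SD, n = 5) in control and 8.64 ± 0.39 (SD, n = 3) in contralateral glands.

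Among the 9 probe sets Adrb1 had the smallest p in both comparisons. The log2 difference was -0.69 ± 0.31 (SE) from all control glands, a 95% interval of -1.38 to -0.005, with an unadjusted p of 0.0486 and an adjusted p of 0.593 by limma with no filter, where 8.34% of all 8740 probe sets had an unadjusted p under 0.05. From contralateral glands it was -0.83 ± 0.36 (SE), with an unadjusted p of 0.0442 and an adjusted p of 0.793, against 6.28% of all probe sets. Among the 7 glands that did not stand apart the differences were -0.83 ± 0.37 (SE) and -0.91 ± 0.44 (SE). Denervated 1 was 0.52 lower than contralateral 1 and 0.04 lower than sham on the log2 scale (differences of -0.52 and -0.04). The size depended on the floor, being -1.02 with a floor at the 10th percentile and -0.33 at the 30th, and the direction was the same under each alternative tried.

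Vipr1 encodes the main VIP receptor of many epithelia, coupled to adenylyl cyclase. At probe set E05551cds_s_at intensity was 1636, 1062, 337, 889 and 102 in denervated glands, against 1122, 781 and 617.5 in contralateral glands, 1805 in sham and 1175 in the unoperated gland. Denervated 3 and 5 lay below all controls, and the other 3 denervated glands within their range. At probe set M86835_at it was 726, 404, 655, 737.5 and 255 in denervated glands, against 1010, 558 and 128 in contralateral glands, 1327 in sham and 1222 in the unoperated gland. Sham was the highest gland at both probe sets and denervated 5 the lowest or next to lowest.

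The log2 difference from all control glands was -0.76 ± 0.61 (SE) at the first probe set of Vipr1 and -0.40 ± 0.62 (SE) at the second (limma adjusted p = 0.699 and 0.856). Leaving out 1 gland at a time gave -1.123 to -0.275 at the first and -0.925 to -0.142 at the second. At both probe sets the smallest difference in size was the one without denervated 5. From contralateral glands these probe sets differed in sign, with -0.43 ± 0.71 (SE) and 0.21 ± 0.66 (SE), and contralateral 3 was the lowest of all glands at the second. Among the 7 glands that did not stand apart the differences were -0.81 ± 0.72 (SE) and -0.005 ± 0.76 (SE) from all controls, and -0.56 ± 0.84 (SE) and 0.68 ± 0.78 (SE) from contralateral glands. Across the 10 glands the pair gave r = 0.613 (permutation p = 0.0579, adjusted 0.116) and rho = 0.770 (permutation p = 0.0121, adjusted 0.0242, over the 2 pairs of probe sets compared). Without denervated 3 and 5 r was 0.749, and without the 3 glands that stood apart 0.459 (n = 7).

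Vip, the parasympathetic cotransmitter, read 73.7, 37.4, 697, 328 and 72.9 in denervated glands, against 105, 70.2 and 36.4 in contralateral glands, 827 in sham and 116 in the unoperated gland. It was above the floor only in denervated 3, denervated 4 and sham, so 7 of 10 glands have no order. All 3 contralateral glands were at the floor. The log2 difference was 0.65 ± 0.63 (SE) from contralateral and 0.17 ± 0.58 (SE) from all control glands (limma with no filter, adjusted p = 0.875 and 0.946). Among the 7 glands that did not stand apart, which leaves out sham, it was 0.81 ± 0.54 (SE) from all controls (limma adjusted p = 0.664) and 0.81 ± 0.67 (SE) from contralateral glands.

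Npy, the sympathetic cotransmitter, read 125, 841, 316, 42.9 and 864 in denervated glands, against 161, 80.4 and 982 in contralateral glands, 672 in sham and 771 in the unoperated gland. Values of 672 or more and values near or under the floor occurred in both classes, with denervated 3 between them. Denervated 1, denervated 4 and contralateral 2 were under the floor. The log2 difference was -0.24 ± 0.73 (SE) from all control glands, with a 95% interval of -1.81 to 1.33, and 0.28 ± 0.82 (SE) from contralateral glands (limma adjusted p = 0.931 and 0.965). Among the 7 glands it was -0.17 ± 0.84 (SE) from all controls and 0.15 ± 0.97 (SE) from contralateral glands. High Npy was not a mark of the glands that stood apart, which read 125, 161 and 672.

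**Figure D2:**
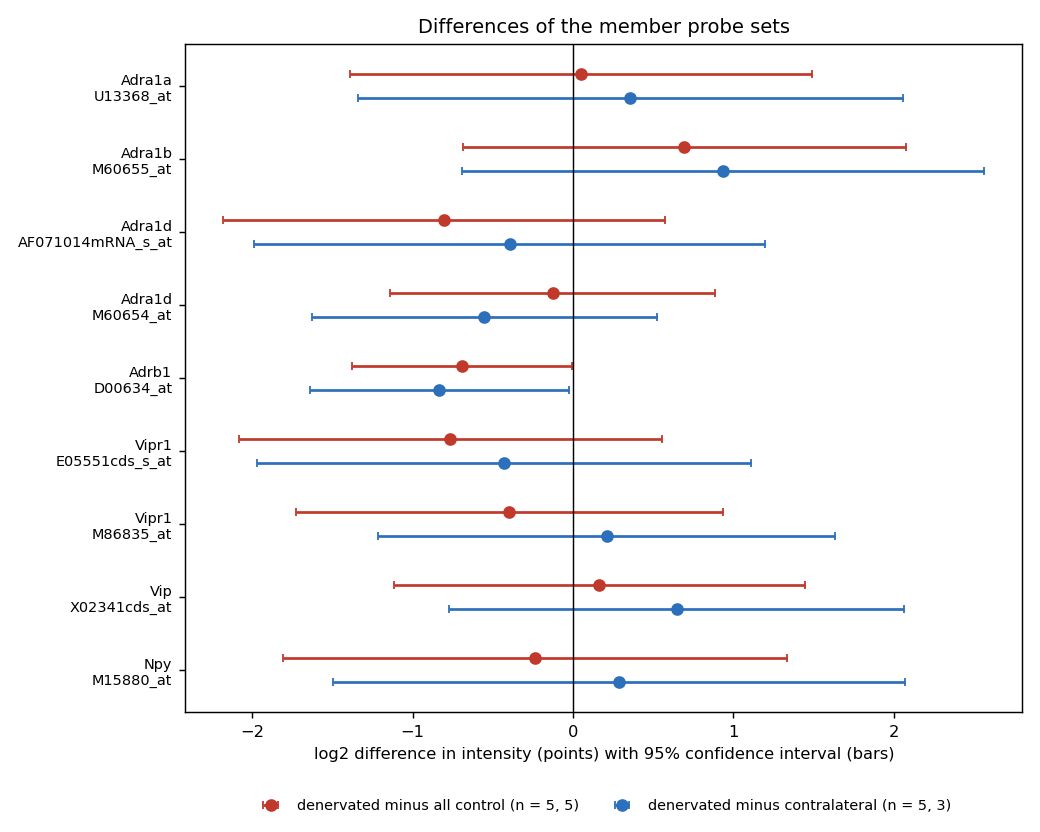
Log2 difference in intensity (points) with 95% confidence intervals (bars) for the 9 probe sets, denervated minus all control glands in red and denervated minus contralateral glands in blue. The Adrb1 intervals end at -0.005 and -0.03, and all other intervals include 0.

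The intervals show what these arrays could resolve. For the 6 probe sets above the filter, standard errors were 0.61 to 0.73 against all control glands, larger than the median of 0.50 over all tested probe sets. For Adra1a, the interval from all controls ran from -1.39 to 1.49 in log2, so a difference of 2-fold in either direction lies within it. Between the highest and the lowest gland, after the floor, Adra1a, the brighter Adra1d probe set and the first Vipr1 probe set spanned 3.55, 3.70 and 3.53 on the log2 scale, and Adrb1 spanned 1.73.

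**Figure D3:**
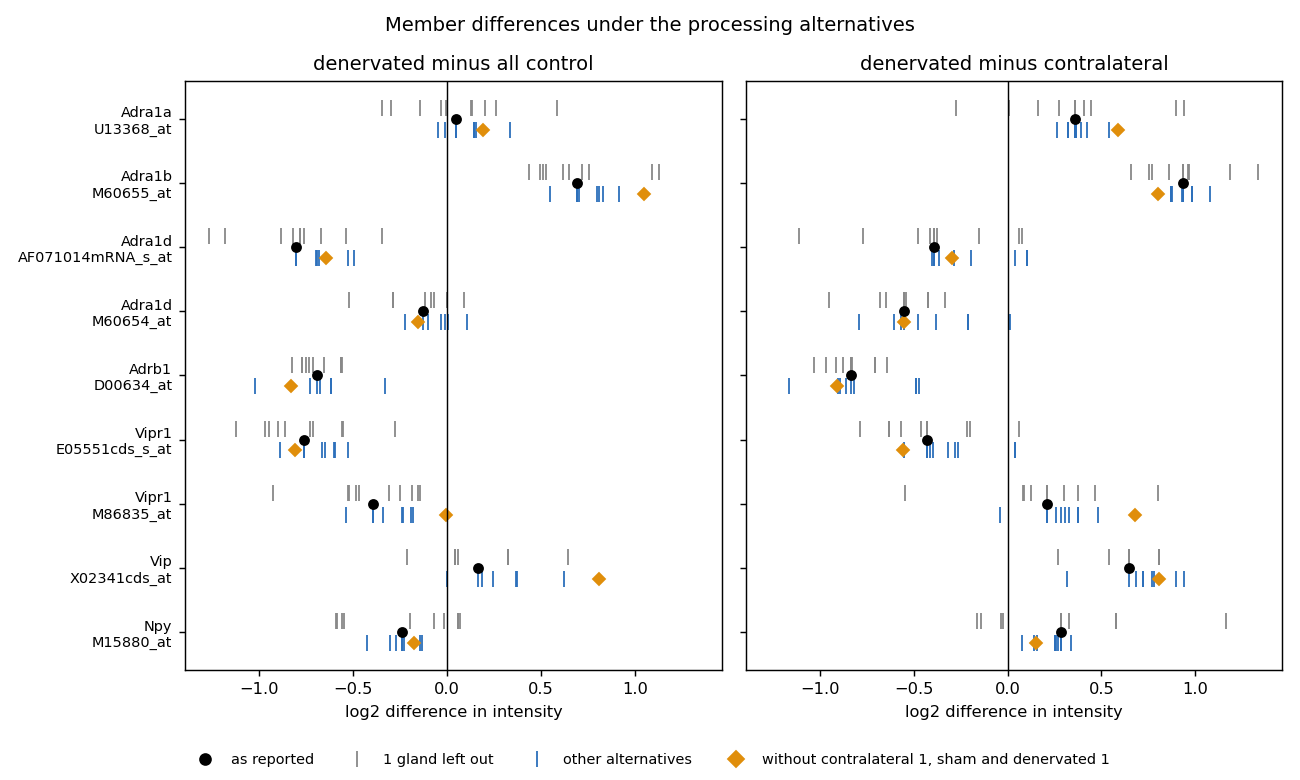
Log2 difference in intensity of each probe set as reported (black), with 1 gland left out (grey), under other processing alternatives (blue) and without contralateral 1, sham and denervated 1 (orange). Adra1b stays above 0 and Adrb1 below 0 in both panels, while Adra1a and Npy fall on both sides of 0.

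For the 5 member genes whose brightest probe set was at the floor in at most 2 glands, the genes with the most similar profile over the 10 glands were looked up by Pearson's r of log2 intensity. These are the highest of about 4690 candidate probe sets for each member, picked for their r, so they are given with no test. Adra1a was most like Cyp2b2 (r = 0.937), a cytochrome P450 whose probe set may match related family members, and Calm2 (0.917), a calmodulin gene. Adra1b was most like Asph (0.902), an aspartyl hydroxylase of the endoplasmic reticulum, and Dnttip1 (0.873). The brighter Adra1d probe set was most like Vps52 (0.952), a vesicle tethering subunit, and Cntnap1 (0.936), a protein of myelinated axons. Adrb1 was most like Sod1 (0.910), the cytosolic superoxide dismutase, and Fasn (0.910), the fatty acid synthase, and Vipr1 was most like Slc7a1 (0.955), a cationic amino acid transporter, and Hk2 (0.946), a hexokinase. Without the 3 glands that stood apart r was 0.845 to 0.980 for these 10 pairs (n = 7). This is no independent check, because the pairs were picked over all 10 glands, these 7 included.

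Other genes of the same pathways were followed in 8 lists, chosen with earlier results of these data known. Of 119 genes listed, 95 were on the array and 75 had a probe set above the filter. None passed over all genes by limma. In denervated against all control glands 25 were higher and 50 lower, 33.3% higher, against 44.4% of all 3621 genes tested, and their median log2 difference was -0.26 against -0.08 for all genes. At an unadjusted p under 0.05 were 4 of them, 5.33%, against 10.1% of all genes. Against contralateral glands 30 were higher and 45 lower, with a median of -0.09 against -0.02 for all genes. Among the 7 glands that did not stand apart 33 were higher and 42 lower than in all controls, 44.0% higher, against 46.6% of all genes, with a median of -0.16 against -0.05, a smaller gap to all genes than over the 10 glands.

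Other adrenergic receptors were even, 2 of 4 higher, with the alpha2 receptor Adra2a, which restrains cyclic AMP, at 0.29 ± 0.49 and the beta3 receptor Adrb3 at -0.24 ± 0.41. Other Adra2a probe sets differed by -1.14 and -0.49 (no filter). These and the following values are log2 differences ± SE from all control glands. Of 8 genes that make, store, take up or break down noradrenaline, 6 were lower, with a median of -0.31. Slc18a2, the vesicular monoamine transporter, had intensities of 589.5, 60.7, 353, 98.1 and 310 in denervated glands, against 523, 828.9 and 644.5 in contralateral glands, 886 in sham and 1079 in the unoperated gland. Denervated 1 exceeded contralateral 1, and the other 4 denervated glands lay below all controls (-1.48 ± 0.51, unadjusted p = 0.0118, limma adjusted p = 0.437). A second Slc18a2 probe set, under the filter, differed by -0.20. Ddc, which decarboxylates DOPA, differed by -1.39 ± 0.73, and tyrosine hydroxylase, Th, the first enzyme of the route, by -0.38 ± 0.59. In the 7 glands 5 of these 8 genes were lower and Slc18a2 differed by -1.87 ± 0.61 (limma adjusted p = 0.250).

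Among relatives of the VIP and NPY systems 4 of 8 genes were higher, including Adcyap1r1, the receptor of the VIP-like peptide PACAP (0.69 ± 0.65), while Pyy, a gut relative of NPY, differed by -0.57 ± 0.67. Without the 3 glands that stood apart Adcyap1r1 differed by -0.03 ± 0.75. The NPY receptor Npy1r differed by 0.04 ± 0.60. Vipr2, the other VIP receptor, was under the filter, with intensities of 540, 62.6, 285, 79.1 and 184 in denervated glands, against 133, 106 and 171 in contralateral glands, 182 in sham and 123 in the unoperated gland. Of 4 genes that process or degrade neuropeptides 3 were lower. Pam, which amidates VIP and NPY at their carboxyl ends, differed by -0.99 ± 0.48, with denervated 2 and 5 at 34968 and 36874 and the other denervated glands between 130039 and 227451, against 132655 to 274520 in controls. Other Pam probe sets differed by -1.31 to 0.18 (no filter). Only 2 of these 4 genes were lower among the 7 glands. Scg5, the helper of prohormone convertase 2, differed by -1.07 ± 0.52, and its second probe set by -0.38 (no filter). From contralateral glands these probe sets of Scg5 differed in sign, at -0.86 and 0.23.

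Downstream, 7 of 19 G protein subunits and adenylyl cyclases were higher, with Gng11 at 1.03 ± 0.48 and Gnb2 at -0.32 ± 0.20. Of 11 phospholipase C and nitric oxide genes, a list that includes effectors of alpha1 receptors, 8 were lower. Plcb2 differed by -1.25 ± 0.58 and the neuronal nitric oxide synthase Nos1 by -0.96 ± 0.57. Other Nos1 probe sets, under the filter, differed by -0.72 and 0.04. Of 13 genes of receptor desensitization and cyclic nucleotide breakdown 9 were lower, with the phosphodiesterases Pde3b at -1.28 ± 0.59 and Pde4a at -0.83 ± 0.63. Another Pde4a probe set differed by 0.85, in the opposite direction. Of 8 genes of cyclic AMP-responsive transcription 6 were lower, with Atf2 at 1.07 ± 0.56 and Crem, a cyclic AMP-responsive regulator, at -1.22 ± 0.79. Another Atf2 probe set, at the floor in 9 glands, differed by -0.13. The adjusted p of these genes was 0.509 or more by limma. The numbers lower among the 7 glands were 11 of 19, 6 of 11, 7 of 13 and 5 of 8, Pde4a differed by -0.36 ± 0.56, and no gene passed.

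**Figure D4:**
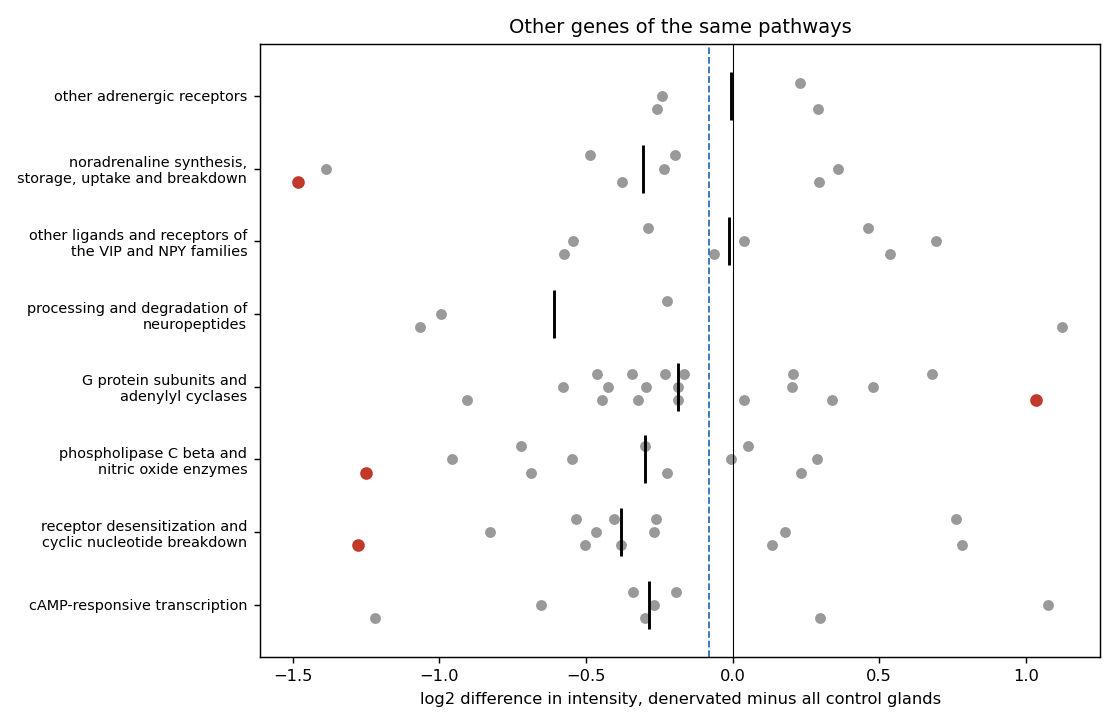
Log2 difference in intensity, denervated minus all control glands, of the 75 genes of 8 pathway lists. Each point is a gene, red points have an unadjusted p under 0.05, black ticks are list medians and the dashed line is the median of all genes, -0.08.

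Markers of other cell types and of neighbouring glands were set beside the members. All 8 measured genes of smooth muscle and myoepithelium, cells that respond to alpha1 agonists, were higher in denervated glands, with a median of 1.16, 5 at an unadjusted p under 0.05 (62.5%, against 10.1% of all genes) and 0 past the adjusted threshold by limma. Against contralateral glands all 8 were again higher, with a median of 1.10 and 1 at an unadjusted p under 0.05 (12.5%, against 6.96% of all genes), and among the 7 glands all 8 were higher than in all controls, with a median of 0.93. Their summed intensity (9 genes) was 16930 to 113100 in denervated glands, against 12930 to 35450 in contralateral glands, 14830 in sham and 28160 in the unoperated gland. The 3 glands that stood apart, which had the highest brighter-probe Adra1d, had the lowest sums, 12930 to 16930. Of 7 adipocyte genes, from a tissue that also holds beta1 receptors, 5 were higher and the median was 0.39. Their sum was 17490 to 26170 in denervated glands, against 14540 to 15630 in contralateral glands, 18800 in sham and 18640 in the unoperated gland. Among nerve and Schwann cell genes 6 of 14 were higher, the median being -0.20, with sums of 10570 to 24700 in denervated glands, against 14710 to 18870 in contralateral glands, 19860 in sham and 21160 in the unoperated gland. The medians among the 7 glands were 0.35 for adipocyte and -0.19 for nerve genes.

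All 4 measured salivary gland genes, of 10 listed, were lower in denervated glands, with a median of -1.64. By limma 3 were at an unadjusted p under 0.05 (75.0%, against 10.1% of all genes) and 0 past the adjusted threshold. All 4 were lower against contralateral glands too, with a median of -1.27. Klk1, a kallikrein abundant in salivary gland, had intensities of 51.3 to 372 in denervated glands, against 678 to 980 in contralateral glands, 584 in sham and 1142 in the unoperated gland. Its groups did not overlap, as for 1.33% of all 8740 probe sets (-2.12 ± 0.48, limma adjusted p = 0.434). Klk1 was under the floor in 4 of the 5 denervated glands, so the size of this difference depends on the floor. Summed over the 6 genes on the array, intensity was 4299 to 12220 in denervated glands, against 9800 to 17040 in contralateral glands, 31720 in sham and 21110 in the unoperated gland. Prb1 was at the floor in at least 8 glands. Without the 3 glands that stood apart all 4 were again lower, with a median of -1.78.

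Of the other lists, 4 of 6 lacrimal genes were higher (median 0.37), as were 1 of 6 endothelial (-0.38), 4 of 7 skeletal muscle (0.28) and 3 of 6 harderian gland genes (-0.13), and among the 7 glands the medians were 0.03, -0.38, 0.64 and -0.65. By limma 33.3%, 0%, 0% and 33.3% of these lists were at an unadjusted p under 0.05, against 10.1% of all genes. None passed the adjusted threshold. Dmbt1 of the lacrimal list read 32637 to 120070 in denervated glands, against 16783 to 29862 in contralateral glands, 18008 in sham and 14496 in the unoperated gland. Its groups did not overlap, as for 1.33% of all 8740 probe sets (1.53 ± 0.36, limma adjusted p = 0.434). The part of these cell types and tissues in the values of the members and pathway lists was not tested.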

How the data were processed

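The authors deposited 1 linear intensity per probe set and gland, scaled to a common array level, as the values show (2% trimmed means of 2505 to 2507). The sources used here do not name the software or give detection calls. The 59 control probe sets were left out. Values were floored at 156.2, the 20th percentile, and log2 was taken. Probe sets with a mean log2 above the 30th percentile (6118 of 8740) were tested with limma 3.58.1 in R 4.3.3 (eBayes with variance trend, two-sided, Benjamini-Hochberg over all probe sets, threshold 0.05), in 2 classes (denervated, control) and in 3 (denervated, contralateral, unoperated with sham). The steps were checked on simulated data. The number of arrays limits the precision.

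Symbols came from the platform annotation, updated by gene ID through RefSeq GRCr8: 7006 probe sets had 1 symbol, 308 several and 1426 none. The members and lists were chosen with earlier results of these data known. Named pathway genes are, per list, the 2 with the smallest unadjusted p, each at its brightest probe set, plus Th, Npy1r and Vipr2, and the markers, chosen after their values were seen. Alternatives were other scalings, floors, filters and variance models, array weights, the 3 glands that stood apart left out or as a block, the glands' numbers as a block, and leaving out each gland. The list values for 7 glands and the check of outlying glands with no floor were added after the data were seen. Figures were drawn with matplotlib 3.10.9.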

Additional observations from a re-analysis of the deposited data

Results flagged for a closer look

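In 18 checks for a gland far from the others of its class (9 probe sets, denervated and control glands, 5 glands each), 2 stood out. At the dim Adra1d probe set M60654_at denervated 3 had a log2 intensity of 9.38 while the next denervated gland had 7.75. For Vip the sham gland had 9.69 while the other 4 control glands were at the floor, 7.29. Chance gives about 1 in 20 such results for untied values, a rate that does not hold here, since 3 denervated glands at M60654_at and 4 control glands for Vip were tied at the floor. With no floor the gap took 0.632 and 0.629 of the range, under the critical 0.71, and no gland stood out in any of the 18 checks.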

How the results depend on the processing

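No member passed under any alternative run (lowest adjusted p 0.346 against all control and 0.446 against contralateral glands, by limma, each for Adrb1 without denervated 1). Of 171 and 189 values of the 9 probe sets under the alternatives, 18 and 16 changed sign, 13 and 9 of them when 1 gland was left out. Adra1b and Adrb1 kept their sign throughout in both comparisons. At the 50th percentile filter Adra1b, Npy and the second Vipr1 probe set were not tested. The number of passing probe sets, 0 against all controls, was 0 to 70 leaving out each gland, the 70 being without denervated 1, with no member among them. In that fit the remaining glands that stood apart, contralateral 1 and sham, were controls, so standing apart and class were mixed. The number was 0 without all 3 glands that stood apart, and 0 with them as a block. Against contralateral glands it was 0, and 0 leaving out each gland, but 1 with no variance trend and 1 with array weights, in each case the small GTPase Rab12 (log2 differences of 3.06 and 3.23).

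Signs turned as follows. Against all controls, Adra1a was -0.047 with a floor at the 10th percentile, -0.012 with array weights and -0.34 to 0.59 leaving out each gland. M60654_at of Adra1d was 0.108 with a floor at the 30th percentile, 0.004 with array weights and -0.52 to 0.09 leaving out each gland. Vip was -0.001 with the 30th percentile floor and -0.21 to 0.65 leaving out each gland, and Npy was -0.59 to 0.07. Against contralateral glands, M60654_at was 0.011 and the second Vipr1 probe set -0.041 with the 30th percentile floor, and the brighter Adra1d probe set was 0.041 with array weights. Leaving out each gland gave -0.27 to 0.94 for Adra1a, -1.11 to 0.079 for the brighter Adra1d probe set, -0.79 to 0.06 and -0.54 to 0.80 for the Vipr1 probe sets and -0.16 to 1.16 for Npy. The cause was not tested.

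Deviations of glands with the same number correlated at 0.488, 0.037 and 0.164, against -0.314 to 0.178 for glands with different numbers. The value of 0.488 was that of denervated 1 and contralateral 1, which both belong to the glands that stood apart. The values of 0.037 and 0.164 lay within the range for different numbers. Whether equal numbers mark a pair is not stated, so the main fits did not pair the glands, and a pairing remains possible. On denervated and contralateral glands 1 to 3, the replicate block gave 0 passing probe sets, as without it, and 498 against 236 at an unadjusted p under 0.05. In both fits the brighter Adra1d probe set was 0.106 and the first Vipr1 probe set 0.038, opposite in sign to the values from all glands. The fit without the block was chosen after the data were seen.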
